A study of Mus musculus with 8 samples.

Results

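Among the places where 5-hydroxymethylcytosine (5hmC) was mapped in mouse fibroblasts, in cells on their way to pluripotency and in pluripotent cells, 9159 regions carried a peak in the fibroblasts and on every sampled day of both reprogramming methods, and no peak in the pluripotent cells. They were picked out of 222732 union regions, made by merging all overlapping or touching peaks of the 8 deposited lists. A region counted as present in a list when at least 1 bp of a peak of that list lay in it. The choice was made on the peaks themselves, so presence, covered length and score of these lasting regions are given as description, with no test.

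The starting cells were mouse embryonic fibroblasts (MEF). They were followed by intermediates at D1, D3 and D5, with D read as day, made with OySyNyK or with OSNK, and by induced pluripotent stem cells (iPSC). From background knowledge of the study, OSNK stands for the factors Oct4, Sox2, Nanog and Klf4, and in OySyNyK the first of these factors, all but Klf4, are fused to the transactivation domain of YAP, a co-activator of the Hippo pathway. The iPSC line carries the OySyNyK factors in its sample title, so it is an endpoint of that method and no OSNK endpoint was analysed here. Per the labels' protocols, OG2-MEF were the fibroblasts cultured, vitamin C and LIF were added for reprogramming, and iPSC were kept on growth-arrested MEF feeder cells. Each group was 1 library, the labels do not say how many cultures went into it, and read depth is unknown. No expression was measured, so cell identity could not be checked against marker genes.

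5hmC is made when TET enzymes oxidise 5-methylcytosine, the methylated base that silences many promoters, and it is both a step towards demethylation and a mark in its own right. In differentiated cells it is known to lie mainly in the bodies of active genes and at enhancers. Turning a fibroblast into a pluripotent cell requires fibroblast enhancers to be shut down and pluripotency enhancers to be opened, and vitamin C is known as a cofactor that raises TET activity. The regions are given by position in the mouse assembly of the lists. Without a genome or gene annotation of the same assembly, regions were not assigned to genes, and no sequence is shown.

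Lasting regions were a minority of the fibroblast regions that had no iPSC peak. Of 50944 regions with a MEF peak and no iPSC peak, 9159 or 17.98% were present in all 6 intermediate lists (95% exact binomial interval 17.6 to 18.3, for counting error only). In 8234 regions, or 16.2%, no intermediate had a peak, and the counts for presence in 1 to 5 intermediates lay between 5821 and 8802. Regions at both ends of this scale were thus among the most frequent. Of the 11660 regions with both an iPSC and a MEF peak, 5750 or 49.3% were present in all 6 intermediates (48.4 to 50.2). These shares were not matched for region width, and a wider region leaves more room for a peak of any list. These 5750 regions, present in all 8 lists, meet the same rule but for the iPSC list and are used below as a comparison set. They were not alike in other ways: their median MEF cover was 1307 bp, against 1020 bp in the lasting regions.

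A further 5995 fibroblast regions without an iPSC peak missed the rule by 1 intermediate list. The missing list was OySyNyK D5 in 3634 of them and OSNK D5 in 1080. It was OySyNyK D3 in 434 and OSNK D3 in 505, and OySyNyK D1 in 138 and OSNK D1 in 204. OySyNyK D5 was also the list in which lasting regions most often had their lowest best score, in 3997 of 9159, against 1486 for OSNK D5 and 1983 for MEF. That list was the shortest of the intermediates, with 70592 peaks against 89497 to 116302 in the others. It also had their lowest median score, 75.8. How far this made regions miss the rule was not tested. The lasting regions had a median MEF cover of 1020 bp and a median best MEF score of 160, against 906 bp and 142 in the regions that lacked OySyNyK D5 only.

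At the edge of the rule, membership rested on weak peaks. The score is the authors' value for each peak, in MACS -10 times the log10 of its p-value, and 50 was the lowest score in every list. In 2531 lasting regions, or 27.6%, the weakest of the 7 best scores was below 60, and in 2360, or 25.8%, all 7 were at least 100. The weakest member, on chromosome 13 at 36607633 to 36608926, had a best score of 50.01 at OySyNyK D5. The next 2, on chromosome 7 at 137676847 to 137677586 and on chromosome 12 at 33885774 to 33887151, had 50.02 at OSNK D5 and 50.02 in MEF. Just outside, the regions on chromosome 17 at 29194030 to 29196504, on chromosome 18 at 12014234 to 12015983 and on chromosome 3 at 51356166 to 51358900 were present in all 8 lists with best iPSC scores of 50.0, 50.0 and 50.01. The iPSC list had the fewest peaks, 54938, and the lowest median score, 71.0, so a region without an iPSC peak need not lack 5hmC in iPSC. Lasting regions numbered 3849 when peaks of all lists needed a score of at least 100, and 5459 when each list was cut to its 54938 best peaks.

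The width of the lasting regions ran from 489 to 14248 bp with a median of 1630 bp (quartiles 1176 and 2347), against a median of 2207 bp in regions present in all 8 lists. Both exceeded the 775 bp of all union regions, as merging peaks of more lists makes a region wider. In 5154 lasting regions, or 56.3%, no list had more than 1 peak. Broad regions of at least 4000 bp numbered 418 among the lasting regions, or 4.56%, against 920 or 16% among those present in all 8 lists. Regions present in all 8 lists contain an iPSC peak by definition, which adds to their width. Counting only bases under peaks of MEF or an intermediate, the lasting regions kept their median of 1630 bp and their 4.56% from 4000 bp up, against 2172 bp and 15.3% in regions present in all 8 lists.

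In most lasting regions the 7 lists also met on the same bases. A stretch covered in all 7 lists was found in all but 965 regions, which are 10.5% of the total, and its median length was 541 bp (quartiles 405 and 708). This common core took up a median of 36.7% of a region's width and 54.3% of its MEF cover. In regions present in all 8 lists the core of the same 7 lists had a median of 677 bp, or 55.8% of MEF cover, and 8.90% had no core. In the 965 regions without a core, presence on every day came from peaks at different bases of one merged region.

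Covered length, the bases of a region under peaks of a list, was lower at D5 than in MEF with both methods. The median was 1020 bp in MEF, then 1075, 993 and 813 bp at D1, D3 and D5 of OySyNyK, and 1147, 1326 and 922 bp at those of OSNK. The quartile ranges overlapped widely between all of these lists. Over the whole lists, the median peak width was 841 bp in MEF, 662, 680 and 703 bp over the days of OySyNyK and 690, 911 and 650 bp over those of OSNK, so the wide cover at OSNK D3 went along with a list of wide peaks. Lasting regions took up 16.1% of all covered bases at OySyNyK D5 (9.28 of 57.6 Mb), 15.1% at OSNK D5 (10.6 of 70.2 Mb) and 17.8% in MEF (11.2 of 63.0 Mb).

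**Figure D1:**
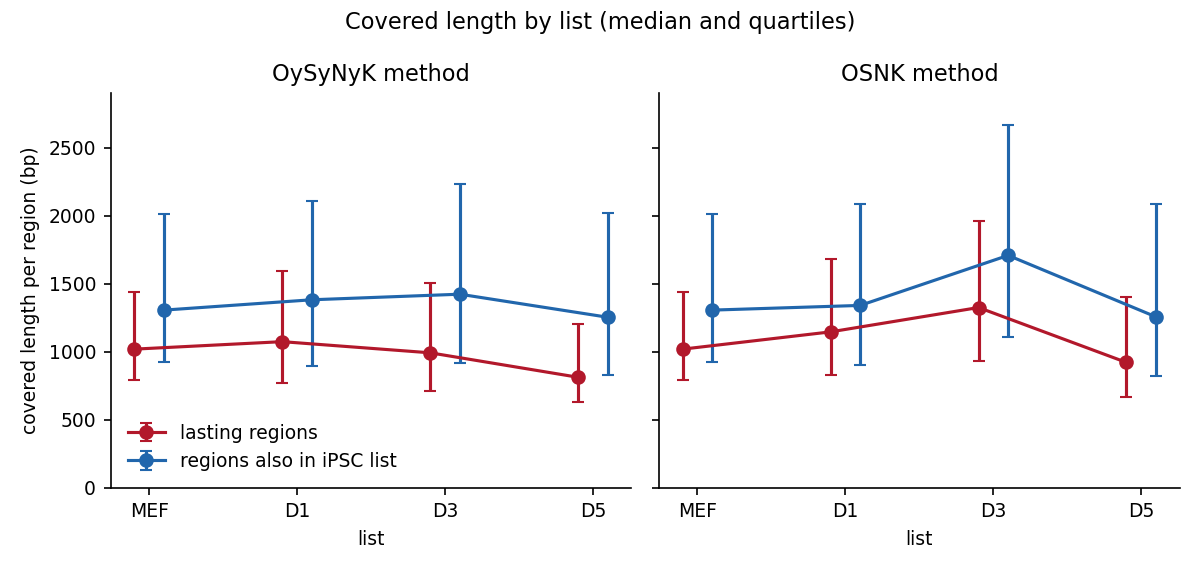
Covered length per region in bp (points, median; bars, quartiles) in MEF and on the 3 days of OySyNyK (left) and OSNK (right), for the 9159 lasting regions (red) and the 5750 regions also present in iPSC (blue). The red medians end at 813 bp with OySyNyK and 922 bp with OSNK, against 1020 bp in MEF, while the blue medians end at 1254.5 and 1257 bp, against 1307 bp in MEF.

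Set against MEF region by region, lasting regions had less cover at D5, and more so with OySyNyK. The median ratio of D5 cover to MEF cover was 0.826 with OySyNyK (quartiles 0.615 and 1.08) and 0.899 with OSNK (0.670 and 1.22). A ratio of at most 0.5 was seen in 1299 lasting regions, 14.2%, at OySyNyK D5, where it was seen in 12.3% of the 23286 regions present in that list and in MEF. At OSNK D5 it was seen in 947, 10.3%, against 12% of the 26287 such regions. Ratios of at least 2 were seen in 325 lasting regions, 3.55%, at OySyNyK D5 (background 4.17%) and in 615, 6.71%, at OSNK D5 (background 5.38%). All 4 shares lay near their background. The median ratio over all those regions was 0.847 with OySyNyK and 0.853 with OSNK, so the lasting regions lay below it with OySyNyK and above it with OSNK.

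Earlier days looked different between the methods. At D1 the median ratio to MEF was 0.995 with OySyNyK, close to 1, and 1.06 with OSNK, and at D3 it was 0.953 and 1.20. Over all regions present in the list and in MEF it was 0.880 and 0.945 at D1, and 0.871 and 1.12 at D3. Ratios of at least 2 at D3 were seen in 584 lasting regions, 6.38%, with OySyNyK (background 4.51%) and in 1414, 15.4%, with OSNK (background 11.5%). Regions present in all 8 lists had higher shares at D3, 9.58% with OySyNyK and 16.1% with OSNK. Of the bases under MEF peaks in lasting regions, 81.1%, 72.5% and 61.5% were also under a peak at D1, D3 and D5 of OySyNyK, and 84.4%, 85.6% and 66.7% at those of OSNK. Over all regions present in the list and in MEF, these shares were 75.8%, 69.7% and 64.6% with OySyNyK. With OSNK they were 79.4%, 82.5% and 65.0%. In lasting regions, bases outside the MEF peaks made up 25.7% of the D5 cover with OySyNyK (background 26.1%) and 29.4% with OSNK (background 28.4%).

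The shapes over the 3 days differed too. Cover went down at each step from D1 to D5 in 3084 lasting regions, 33.7%, with OySyNyK, where 21.8% of all regions present on its 3 days did so. With OSNK this was seen in 2127, 23.2%, against 17.3%. Cover was widest at D1 in 4507 lasting regions with OySyNyK, 49.2% against a background of 34.4%, and at D3 in 5975 with OSNK, 65.2% against 69.9%. A rise at each step was seen in 825 with OySyNyK, 9.01% (background 18.2%), and in 533 with OSNK, 5.82% (background 7.86%). The background here holds regions with and without MEF peaks, among them those gained on the way to iPSC.

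The scores of lasting regions, like those of whole lists, were lower at D5 than at D1 with both methods. The median best score of lasting regions was 160 in MEF, then 238, 155 and 98.1 over the days of OySyNyK (D1, D3, D5) and 303, 182 and 132 at those of OSNK. The median over all peaks of each list was 103 in MEF, 95.8, 84.2 and 75.8 over the days of OySyNyK and 105, 91.4 and 81.3 over those of OSNK. Within their own list, the lasting regions' best peaks had a median percentile of 69.2 in MEF, 87.1, 81.7 and 68.2 for OySyNyK and 88.4, 82.5 and 78.8 for OSNK. For regions present in all 8 lists it was 76.3 in MEF, 90.5, 90.8 and 87.4 for OySyNyK and 88.5, 87.3 and 87.4 for OSNK. Taking the best peak of a region raises these percentiles in both sets. The score moves with depth and the lists differ in length, so these values describe each list and show no change between them. The share of lasting regions with a best score of at least 100 was 48.6% at OySyNyK D5 and 68.3% at OSNK D5, against 70.3% in MEF.

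**Figure D2:**
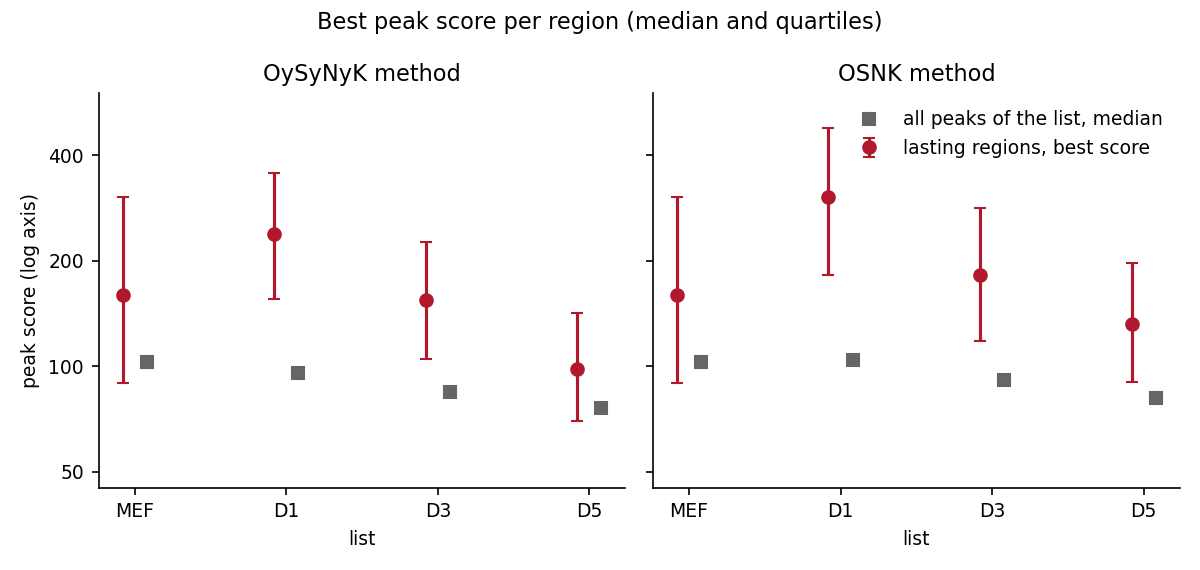
Best peak score per lasting region (red points, median; bars, quartiles; log axis) in MEF and on the 3 days of OySyNyK (left) and OSNK (right), with the median score of all peaks of each list (grey squares). The red medians are highest at D1, at 238 with OySyNyK and 303 with OSNK, and lie above the grey squares in all 7 lists. Red is the best peak of a region chosen for presence in all 7 lists and grey is single peaks, so this order follows in part from the measure.

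Lasting regions were next set beside the regions that also had an iPSC peak. In lasting regions the median D5 to MEF ratio was 0.826 with OySyNyK and 0.899 with OSNK, and in regions present in all 8 lists it was 0.947 and 0.943. A ratio of at most 0.5 at OySyNyK D5 was seen in 14.2% of lasting regions and 9.06% of regions present in all 8 lists, and at OSNK D5 in 10.3% and 9.65%. Over all regions present in the list and in MEF it was seen in 12.3% and 12%, so the lasting regions lay nearer to that background than the regions present in all 8 lists did. A ratio of at least 2 at OySyNyK D5 was seen in 3.55% of lasting regions and 8.16% of regions present in all 8 lists (background 4.17%). At OSNK D5 it was seen in 6.71% and 9.11% (background 5.38%). The median ratio of lasting regions differed from that of regions present in all 8 lists by -0.12 with OySyNyK and by -0.044 with OSNK. With equal numbers of peaks these differences were -0.097 and -0.015, with peaks within 1 kb joined -0.19 and -0.092, and with 500-bp peaks both were 0. With 1 library per method these differences have no replicate check, and both sets share the MEF list.

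The gap between the sets was present in all bins of MEF cover examined, but such bins do not remove the width of the region. D5 peaks are part of the region, and a wider region leaves more room for an iPSC peak. How far this made the gap was not tested. Among regions with less than 800 bp of MEF cover, the median OySyNyK D5 ratio was 1.02 in 2397 lasting regions and 1.20 in 836 regions present in all 8 lists. From 800 to below 1200 bp it was 0.825 and 0.998, and from 1200 to below 2000 bp it was 0.672 and 0.892. From 2000 bp up it was 0.570 in 993 lasting regions and 0.803 in 1463 regions present in all 8 lists. For OSNK D5 the medians in the same bins were 1.09 and 1.22, 0.888 and 0.985, 0.787 and 0.880, and 0.688 and 0.824. MEF cover stands both in the bin and in the ratio, so the fall of the ratio from bin to bin follows in part from how the bins were made. Over all regions with at least 2000 bp of MEF cover the median ratio was 0.671 at OySyNyK D5 and 0.714 at OSNK D5. Both lay between the lasting regions and those present in all 8 lists. In the lower bins, from small to large cover, the median over all regions was 0.993, 0.824 and 0.739 at OSNK D5, below the lasting regions in each. At OySyNyK D5 it was 1, 0.834 and 0.723, below the lasting regions only in the bin under 800 bp.

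Next, cover was compared between the methods day by day. OySyNyK cover was below OSNK cover in 5575 of 9159 lasting regions at D1, 60.9% (95% exact interval 59.9 to 61.9), where 61.4% of all regions present in both lists were lower. At D3 it was below in 7512, 82.0% (81.2 to 82.8), against a background of 80.8%, and the OSNK D3 list had the widest peaks of all. At D5 it was below in 5479, 59.8% (58.8 to 60.8), against a background of 52.3%. The lasting regions were thus near the background at D1 and D3 and above it at D5. Large gaps leaned the same way: at D5 OySyNyK had at most 0.5 times the OSNK cover in 830 lasting regions, 9.06% (background 6.05%), and at least 2 times in 252, 2.75% (background 3.75%).

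Regions present in all 8 lists showed no such lean at D1 and D5. OySyNyK was below OSNK in 50.9% of them at D1 (interval 49.6 to 52.2), in 75.2% at D3 (interval 74.0 to 76.3) and in 49.7% at D5 (interval 48.4 to 51.0). The difference between the lasting regions and these was 10.1 percentage points at D5. With each peak set to 500 bp most regions tied, and the difference was -0.669 points (interval -1.595 to 0.226). Within bins of MEF cover, the D5 shares were 57.9% to 64.9% in lasting regions and 47.4% to 52.8% in regions present in all 8 lists. On all 3 days together, OySyNyK was lower in 3095 lasting regions, 33.8%, and higher in 446, 4.87%, where 30.2% and 7.59% of all regions present in all 6 intermediates were.

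**Figure D3:**
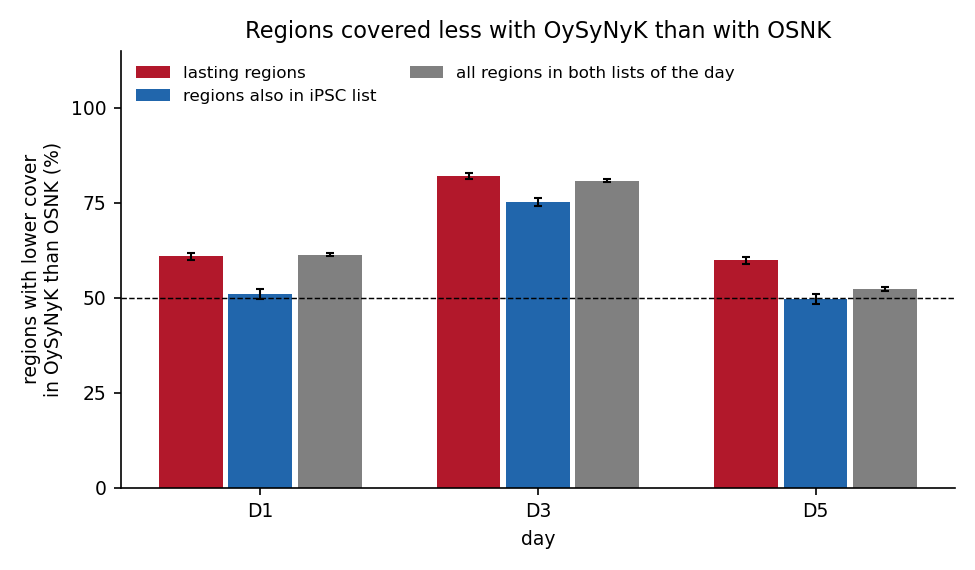
Percent of regions with lower covered length in OySyNyK than in OSNK at D1, D3 and D5, for lasting regions (red), regions also present in iPSC (blue) and all regions present in both lists of the day (grey); bars are shares, whiskers 95% exact binomial intervals, and the dashed line marks 50%. Lasting regions reach 59.8% at D5, against 49.7% in regions also present in iPSC.

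How often a region present in MEF and in all 6 intermediates had no iPSC peak differed between chromosomes. Over the genome this was 9159 of 14909 regions, or 61.4% (60.6 to 62.2). The share was 85.7% on chromosome 13 (82.8 to 88.2), 83.5% on chromosome 16 (80.2 to 86.5), 81.5% on X (61.9 to 93.7, 27 regions), 77.6% on chromosome 18 and 72.3% on chromosome 6. It was lowest on chromosome 12, at 40.5% (36.7 to 44.3), and lay between 53.5% and 66.8% on the other 14 chromosomes. The same 5 chromosomes with the highest share had the fewest iPSC peaks for their MEF peaks, with 0.253 iPSC peaks per MEF peak on chromosome 13, 0.257 on 16, 0.207 on X, 0.438 on 18 and 0.503 on 6. Chromosome 12 had the most, 1.504.

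Chromosomes 13 and 16 stayed high and chromosome 12 low among narrow and among wide regions, split at the median width of 1815 bp, iPSC peaks included. On chromosome 13, 89.5% of the narrow and 80.1% of the wide regions had no iPSC peak, on chromosome 16 86.3% and 80.3%, and on chromosome 12 53.6% and 28.2%. Chromosomes 13 and 16 together held 1057 of the lasting regions. How far the sparse iPSC list on these chromosomes made regions count as lasting was not tested. Leaving out chromosomes 12, 13, 16, 18 and X left 7410 lasting regions and a share of 59.5%.

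**Figure D4:**
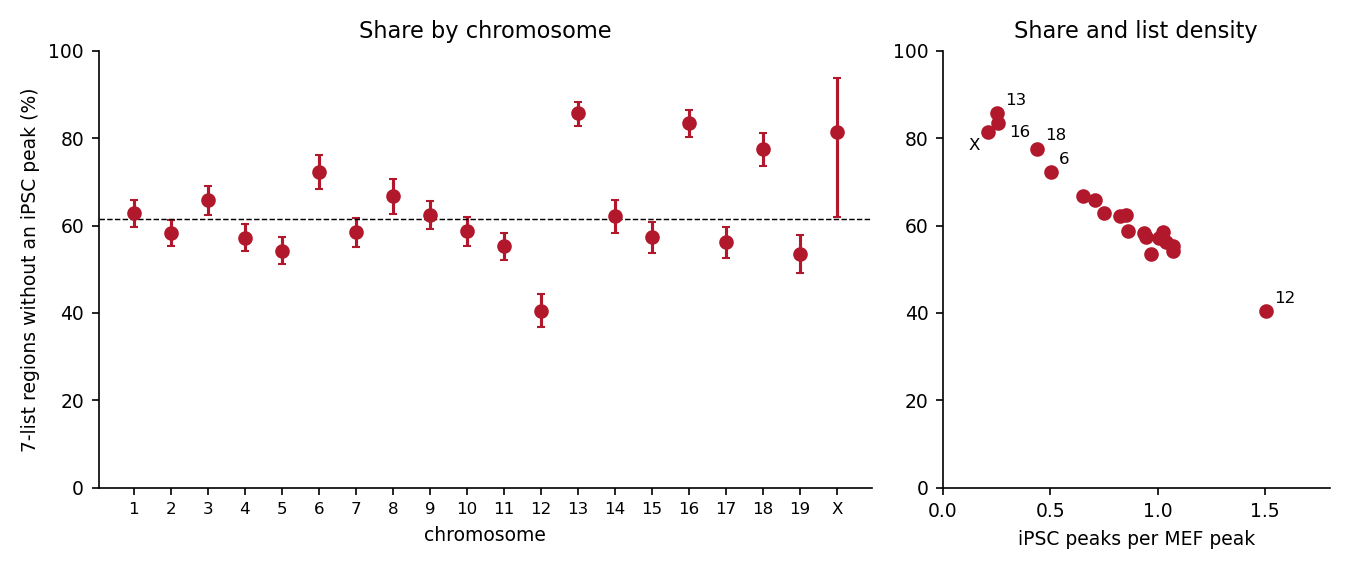
Left, percent of the regions present in MEF and all 6 intermediates that had no iPSC peak, by chromosome, with 95% exact binomial intervals and the genome-wide 61.4% as a dashed line. Right, the same percent against the number of iPSC peaks per MEF peak of each chromosome; chromosomes 13, 16, X, 18 and 6 stand at the upper left and chromosome 12 at the lower right.

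Among those 14909 regions, weak and narrow ones more often had no iPSC peak. In 4 equal classes of the bases under peaks of MEF or an intermediate, which leave out the iPSC peak itself, the share without one was 74.0%, 67.5%, 59.5% and 44.8% from narrow to wide. A wider region also leaves more room for an iPSC peak to fall in it. Ranked by the lower of the best D5 scores of the methods, it was 77.4%, 68.6%, 60.3% and 39.4% from weak to strong. The best MEF score made a smaller difference, with 66.3%, 64.6%, 61.8% and 53.0%. The share thus spread over a wider range by D5 score than by MEF score. These measures differ, as the D5 value is the lower score over both methods and the MEF value comes from the MEF list alone. All scores also move with the depth of their list. D5 score was not separated from the width of the regions. Whether the D5 lists' being closer in time to iPSC plays a part was not tested. Even in the strongest class by D5 score, 1469 regions had peaks in the other 7 lists and none in iPSC.

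Many lasting regions lay near an iPSC peak without touching one. The nearest iPSC peak was a median of 7886 bp away (quartiles 2749 and 21717), and within 1 kb for 1011 regions, or 11.0%. Fibroblast regions that were missing from more lists lay further from iPSC peaks. The median distance was 11401 bp for the 3634 regions that lacked OySyNyK D5 only, and 19270 bp for the 6724 regions present in MEF and at D1 of both methods and absent from D3 on. The share within 10 kb was 56.1% for lasting regions, 46.8% for those 3634 and 36.3% for the 6724. On chromosomes 13 and 16 the median distance of lasting regions was 24386 bp, and 3.41% lay within 1 kb.

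The largest lasting regions were long stretches held on every day. The rule for these took the regions with the largest smallest cover over the 7 lists. On chromosome 19, positions 47581621 to 47591051 were covered over 6273 bp in MEF, over 7805, 8478 and 7753 bp on the 3 days of OySyNyK, and over 8064, 8928 and 7279 bp at those of OSNK. All 6 intermediates lay above MEF there, and 4409 bp were common to all 7 lists, the longest core of any lasting region. An iPSC peak lay 402 bp from its edge.

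The second, on chromosome 5 at 113636909 to 113646750, had 7104 bp in MEF, 5904, 7878 and 6900 bp with OySyNyK and 7572, 8388 and 7141 bp with OSNK. Its best score was 139 at OySyNyK D5 and 425 at OSNK D5, against 1445 in MEF, while its D5 cover was 0.971 and 1.01 times that of MEF. On chromosome 9, positions 21529240 to 21537517 had 6030 bp in MEF, 6901, 5764 and 5109 bp with OySyNyK and 6966, 7235 and 6623 bp with OSNK, and an iPSC peak lay 280 bp away. Those on chromosome 15 at 25559042 to 25569696 and on chromosome 2 at 32748994 to 32755991 completed the set, with D5 covers of 5879 and 4651 bp with OySyNyK and 8490 and 4749 bp with OSNK, against 4974 and 6744 bp in MEF. Cover at D5 was thus above MEF on chromosome 15 and below it on chromosome 2 with both methods.

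Some lasting regions had much more cover on every later day than in MEF. On chromosome 10, positions 74581015 to 74595262, the widest lasting region, had 1917 bp under peaks in MEF, 8709, 8225 and 8054 bp with OySyNyK and 6289, 13335 and 11386 bp with OSNK. Its D5 cover was 4.20 times MEF with OySyNyK and 5.94 times with OSNK, and 9 bp were common to all 7 lists. The region on chromosome 15 at 31163732 to 31168849 had 4761 bp at OySyNyK D5 and 4908 bp at OSNK D5, against 1268 bp in MEF, with a rise at each step with both methods. On chromosome 8, positions 124140826 to 124145528 had 4517 bp at OySyNyK D5 and 3852 bp at OSNK D5, against 1040 bp in MEF. In these 3 regions, each of the 6 intermediates covered more than MEF.

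Others had far less cover at D5 than in MEF. On chromosome 13, positions 41433249 to 41435982 had 2555 bp in MEF, 2374, 659 and 403 bp with OySyNyK and 2507, 902 and 423 bp with OSNK, and the nearest iPSC peak was 69622 bp away. No base there was covered in all 7 lists. On chromosome 1, positions 163933399 to 163936969 had 3188 bp in MEF, 1884, 643 and 486 bp with OySyNyK and 2027, 3214 and 562 bp with OSNK. On chromosome 7, positions 121920499 to 121923317 had 2819 bp in MEF, 1232, 1284 and 556 bp with OySyNyK and 1411, 856 and 428 bp with OSNK. The D5 cover of these 3 was 0.152 to 0.197 times MEF with OySyNyK and 0.152 to 0.176 times with OSNK. Their best D5 scores lay between 54.6 and 64.5 with OySyNyK and between 55.7 and 91.1 with OSNK, near the floor of 50, and their best MEF scores were 833, 897 and 992. On chromosomes 13 and 7 the OSNK peaks of D3 and D5 shared no base, while on chromosome 1 they did. Those of OySyNyK shared bases in all 3 regions.

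The methods parted most on a few regions. On chromosome 10, positions 85788142 to 85792648 had 1823, 1600 and 745 bp at D1, D3 and D5 of OySyNyK and 4029, 4501 and 2894 bp with OSNK, against 1615 bp in MEF. On chromosome 2, positions 168351231 to 168355739 had 1363, 2360 and 953 bp with OySyNyK and 3939, 4446 and 3301 bp with OSNK, against 1876 bp in MEF. On chromosome 15, positions 77184743 to 77189149 had 1025, 1586 and 735 bp with OySyNyK and 2888, 4304 and 3673 bp with OSNK, against 1349 bp in MEF. At D5 OySyNyK lay below MEF and OSNK above it in each of these.

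In the opposite direction, the 3 chosen regions were all on chromosome 4. Positions 138560911 to 138565268 had 2987, 3900 and 3621 bp with OySyNyK and 1372, 2313 and 1641 bp with OSNK, against 2981 bp in MEF. Positions 140627968 to 140631369 had 1929, 3253 and 1962 bp with OySyNyK and 682, 914 and 696 bp with OSNK, against 1154 bp in MEF. Positions 150679260 to 150682483 had 2771, 3014 and 1815 bp with OySyNyK and 1652, 1928 and 718 bp with OSNK, against 1351 bp in MEF. OySyNyK D5 lay above MEF and OSNK D5 below it in each. With equal numbers of peaks, the log2 ratio of OySyNyK D5 to MEF cover from 140627968 was -0.0996, against 0.766 as reported.

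**Figure D5:**
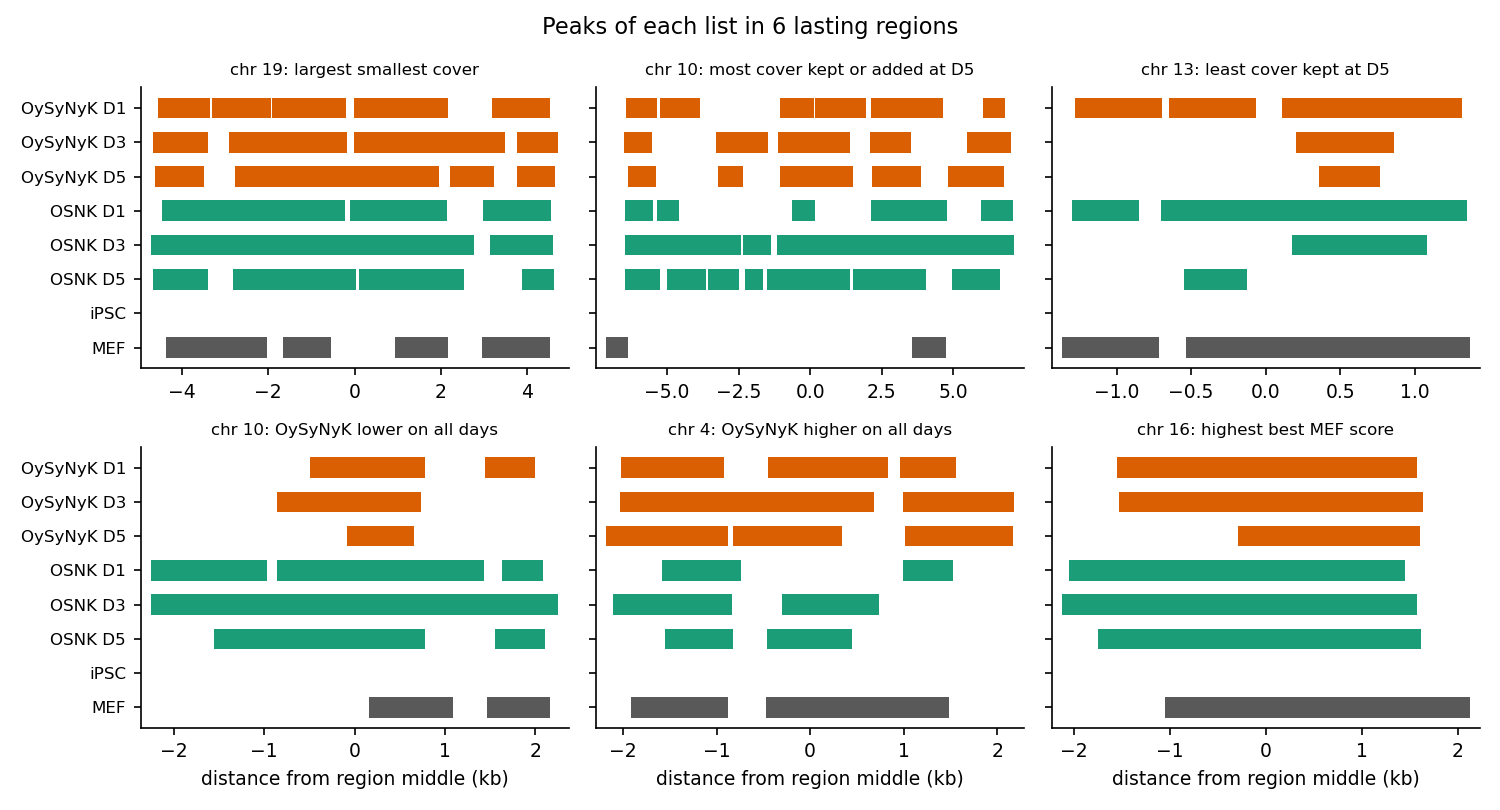
Peaks of each list (bars; orange OySyNyK, green OSNK, grey iPSC and MEF) in 6 lasting regions, the first of each selection, plotted by distance from the middle of the region in kb. The iPSC row is empty in each. At chromosome 13 the OySyNyK and OSNK peaks cover 403 and 423 bp at D5, and at chromosome 19 peaks span most of the region in all 7 other lists.

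The 3 lasting regions with the highest best MEF scores had less cover at D5 of OySyNyK than in MEF. They were chosen by a MEF value, so lower later values can follow from the choice. Over all regions with at least 2000 bp of MEF cover the median ratio was 0.671 at OySyNyK D5 and 0.714 at OSNK D5. The best MEF scores were 2325 on chromosome 16 at 32655122 to 32659371, 2209 on chromosome 11 at 86390571 to 86398133 and 2150 on chromosome 17 at 5974958 to 5980044. On chromosome 11 the cover was 6638 bp in MEF, 6969, 5918 and 2965 bp with OySyNyK and 7033, 7244 and 5590 bp with OSNK. On chromosome 16 it was 1897 bp at OySyNyK D5 and 3364 bp at OSNK D5, against 3179 bp in MEF. On chromosome 17 it was 2750 bp at OySyNyK D5 and 2458 bp at OSNK D5, against 4578 bp in MEF. OySyNyK D5 was below MEF in all 3, and OSNK D5 in those on chromosomes 11 and 17. The nearest iPSC peak was 16683, 15286 and 1370 bp away on chromosomes 16, 11 and 17.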

How the data were processed

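Per the labels' protocols, sheared genomic DNA was tagged at 5hmC with an azide-bearing glucose, biotinylated, pulled down on streptavidin beads and sequenced. The submitters' processing notes name Bowtie, a read aligner, and MACS, a peak caller. Their versions and settings, and whether a control library was used, are not stated in those notes or in the lists. The deposited files are 1 peak list per library with the authors' score for each peak, which is not normalized between libraries. The notes name human builds (hg18, NCBI36), but peaks lie on mouse chromosomes 1 to 19 and X and pass the last GRCm38 gene on 10 of 20, up to 197168143 on chromosome 1, so the lists use another mouse assembly, probably mm9. The supplied gene and promoter tables are GRCm38, so the planned counts over genes were not made.

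Peaks were merged, and cover, best score and overlap computed, with scipy 1.17.1, pandas 2.3.3 and numpy 2.4.6 under Python 3.11.15. Bedtools 2.31.1 gave the same 222732 union and 9159 lasting regions, and all 355 members planted among 6000 simulated regions were recovered. Figures used matplotlib 3.10.9. Coordinates count from 1. Depth is unknown, and exact (Clopper-Pearson) intervals cover counting error along the genome, not the variation between cultures. With 1 library per group no p-value is given. The regions, comparison sets and rules were chosen with earlier results of these data known. Named regions had at least 1000 bp of MEF cover: the 5 with the largest smallest cover, the 3 highest and the 3 lowest by D5 to MEF ratio in both methods, the 3 in each direction with the largest consistent method difference, and the 3 best MEF scores. Edge regions had any cover. The comparison with regions present in all 8 lists by MEF cover, and widths without iPSC peaks, were added after seeing the data.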

Additional observations from a re-analysis of the deposited data

Results flagged for a closer look

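The median D3 to MEF cover ratio of the lasting regions lay on opposite sides of 1, at 0.953 with OySyNyK and 1.20 with OSNK. So did that over all regions present in the list and in MEF, at 0.871 and 1.12, so this is not particular to the lasting regions. In regions present in all 8 lists it was 1.01 and 1.20. The values that follow are again of the lasting regions. At D1 it was 0.995 with OySyNyK, a value whose interval over regions, 0.987 to 1.002, includes 1, and 1.06 with OSNK. The difference between the methods was not tested, as each method had 1 library a day. The lists themselves covered 76.9 Mb at OySyNyK D1 and 91.9 Mb at OSNK D1, 74.3 and 98.2 Mb at D3, and 63.0 Mb in MEF.

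Named regions whose D5 to MEF cover ratio lay on opposite sides of 1 were the following, again with no test of the difference. The first 6 were chosen for a method difference. On chromosome 10 from 85788142 the ratio was 0.461 with OySyNyK and 1.79 with OSNK, on chromosome 2 from 168351231 it was 0.508 and 1.76, and on chromosome 15 from 77184743 it was 0.545 and 2.72. On chromosome 4 it was 1.21 and 0.550 from 138560911, 1.70 and 0.603 from 140627968, and 1.34 and 0.531 from 150679260. The other 3 were on chromosome 16 from 32655122 with 0.597 and 1.06, on chromosome 9 from 21529240 with 0.847 and 1.10, and on chromosome 5 from 113636909 with 0.971 and 1.01. Not all of these held under other settings. With equal numbers of peaks, the region from 140627968 lay below MEF with both methods. With scores from 100 up, so did the region from 113636909. Under that setting none of the first 6 regions had both ratios, because peaks of MEF or of a D5 list fell away. With equal numbers of peaks, the regions from 138560911 and 150679260 had no OSNK D5 peak left and so no OSNK ratio.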

How the results depend on the processing

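The number of lasting regions was 3849 with a score of at least 100 and 5459 with equal numbers of peaks, since fewer peaks enter. Under 4 other settings it was 7410 to 8759, and leaving 1 intermediate list out of the rule gave 9297 to 12793, the last without OySyNyK D5. The share of 7-list regions without an iPSC peak was 78.2% with a score of at least 100, 57.6% with equal numbers, 66.1% with 500-bp peaks, 52.4% with peaks within 1 kb joined, 59.5% without chromosomes 12, 13, 16, 18 and X, and 54.7% when an iPSC peak within 1 kb counted as present. With 500-bp peaks, cover counts peaks and no longer their width: both D5 to MEF medians became 1, their differences from regions present in all 8 lists 0, the shares lower in OySyNyK 3.19%, 1.13% and 6.23% at D1, D3 and D5, and the D5 difference between these sets was -0.669 points, with most regions tied. With peaks within 1 kb joined, the D5 to MEF medians were 0.806 with OySyNyK and 0.941 with OSNK, their differences from regions present in all 8 lists -0.19 and -0.092, and the shares lower in OySyNyK 62.7%, 78.3% and 63.3%. With scores from 100 up, the OySyNyK median was 0.851 and the shares at D1 and D5 were 58.5% and 58.1%. With equal numbers, the share at D3 was 83.7% and the differences in the medians were -0.097 with OySyNyK and -0.015 with OSNK. The D5 difference of 10.1 points stayed between 9.78 and 11.4 under the 4 settings that keep peak width. Of 20 named regions, 10 were still lasting with scores from 100 up and 14 with equal numbers. No paired analysis was possible because every group has 1 library.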

Other observations

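Lasting regions were spaced much like the regions present in all 8 lists. The gap to the nearest other region of the same set had a median of 20869 bp among lasting regions and 21547 bp among those present in all 8 lists, and it was at most 10 kb for 35.7% and 34.7%. Windows of 100 kb with 5 or more regions held 15.1% of the lasting regions and 12.7% of those present in all 8 lists. The windows named next were singled out after their values were seen. The 9159 regions fell into 5201 windows of 100 kb, of which 3121 held 1 and 231 held 5 or more. The fullest window, on chromosome 10 from 119800001 to 119900000, held 16 of them beside 12 regions present in all 8 lists. Their summed cover was 22602 bp in MEF, 24690, 22405 and 17231 bp at D1, D3 and D5 of OySyNyK and 25917, 30147 and 21658 bp at those of OSNK. On chromosome 14, the window from 120700001 held 14. The window from 67300001 on chromosome 11 held 12 lasting regions and no iPSC peak at all, with 12263 bp at OySyNyK D5 and 16476 bp at OSNK D5, against 15908 bp in MEF.

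Chromosome 4 held all 3 named regions with more OySyNyK than OSNK cover, and 45 of its 581 lasting regions, 7.75%, were higher with OySyNyK on all 3 days, with 4.87% over all chromosomes. Among all regions present in all 6 intermediates, 11.0% of those on chromosome 4 were, with 7.59% over all chromosomes.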
